A study of Mus musculus with 6 samples.

Results

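The 39 genes described here are a fixed list of hypoxia-response and glycolysis genes, read from the human gene table of DU145 tumours grown in mice. They are taken by gene name, and each of the 39 had a row among the 58884 named rows of that table. DU145 is an established human prostate cancer line with epithelial features. Its cells had been placed under the skin of male nude mice, which lack mature T cells, and the animals were divided at random into groups when the tumours became palpable. There were 3 control tumours and 3 tumours from mice given Zelnorm daily by mouth (the drug tegaserod, which activates the serotonin receptor HTR4), and both groups shared the line, the host strain and the site. Neither dose, duration nor the age of the mice is given in the sources used here. The treated samples carry the name Zelnorm in one label and MBZ, with no explanation, in others, and the group is called Zelnorm. Libraries are named by their columns: NC10, NC4 and NC9 are controls, and MBZ_254, MBZ_257 and MBZ_259 are Zelnorm. The labels do not name the animals, so the p-values measure only the spread between these samples, which may in part be technical.

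Cells short of oxygen stop hydroxylating the alpha subunits of the hypoxia-inducible factors (HIF), which then escape degradation, pair with ARNT and bind hypoxia response elements. The genes they induce carry glucose into the cell, run glycolysis to lactate, hold pyruvate back from the mitochondria, remove mitochondria, regulate pH and recruit vessels. Tumours under the skin commonly contain poorly perfused zones, and cancer cells can also run glycolysis at high rates when oxygen is present.

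RNA was measured in each whole tumour and assigned to a human table, which holds mainly the tumour cells, and a mouse table, which holds mainly the host cells. The 6 libraries held 24602178 to 39278195 estimated counts each for human genes, and 5817165 to 9228446 for mouse genes. The 6 epithelial markers checked (KRT8, KRT18, KRT19, KRT7, EPCAM and CDH1) lay between 296 and 2476 CPM, counts scaled to a common library total, in every library. Skeletal muscle genes differed most between libraries: their summed level over 11 mouse genes was 132 and 251 CPM in MBZ_254 and MBZ_257, 462 to 2717 CPM in the controls and 6609 CPM in MBZ_259. In bulk RNA, fewer cells of a type and less RNA per cell cannot be told apart.

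Levels below are CPM of the human table in the order NC10, NC4 and NC9 for controls, then MBZ_254, MBZ_257 and MBZ_259 for Zelnorm. Gene lengths were not used, so levels are compared between libraries and not between genes. Between the groups, no member passed the test. Of the 39 members, 38 had enough counts to be tested. In edgeR's quasi-likelihood test none of the 38 passed an adjusted p of 0.05, against 0% of the 18820 genes tested, and none had an unadjusted p under 0.05, against 1.31% of all genes. DESeq2 called 1 human gene and limma-voom called 0, and neither called a member. The log2 fold change, Zelnorm over control, was above 0 for 32 of 38 members, against 49.1% of all genes, with a median of 0.095 for the members and -0.0024 for all genes. That count fell to 16 of 38, with a median of -0.014, when MBZ_254 was left out. When MBZ_259 was left out instead, it stayed at 32 of 38, with a median of 0.19. Without MBZ_254, 2 members had an unadjusted edgeR p under 0.05, against 619 of 19542 genes tested. Without MBZ_259, 6 did, against 248 of 18966, and neither fit called a member. In no member did all 3 Zelnorm libraries lie above all 3 controls, against 2.52% of all genes, or below them, against 2.31%.

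The library in which a member was highest or lowest was not spread evenly. MBZ_254 was the highest of the 6 libraries for 17 of 38 members, against 16.5% of all genes, and NC4 was the highest for 13, against 24.7%. MBZ_259 was the lowest for 17, against 14.0%, and NC10 was the lowest for 14, against 14.6%. Both ends therefore included a Zelnorm tumour. A count made after the values were seen found 15 members that were highest in MBZ_254 and also lowest in MBZ_259, against 3.49% of all genes. These orders are a description of 6 libraries, with no test. The fold between the highest and lowest library, taken from log2 CPM after adding a prior count of 2, had a median of 1.53 over the members and 1.48 over all genes. It reached 2 in 11 members, against 21.5% of all genes.

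**Figure D1:**
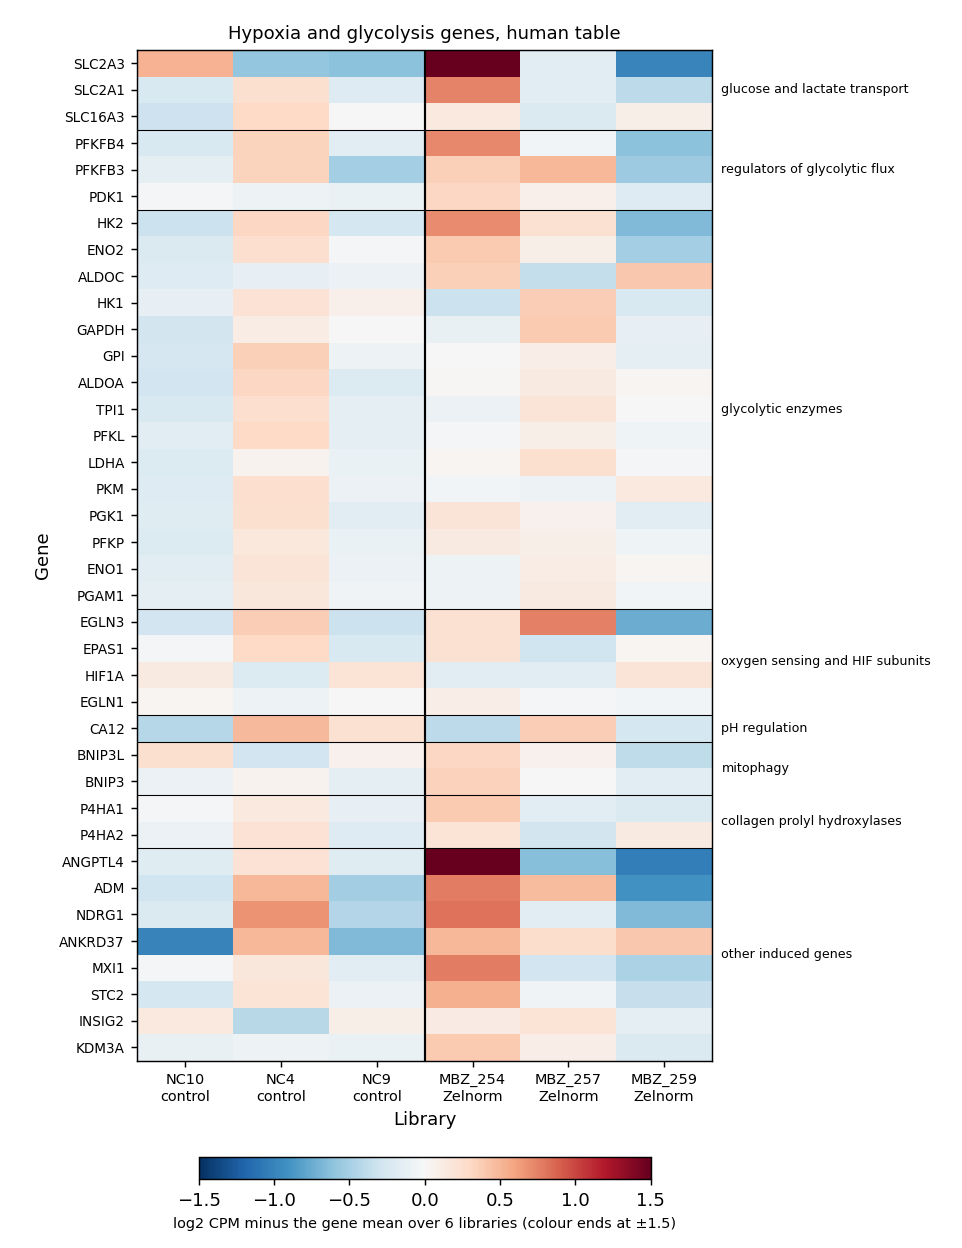
Each row is a member tested in the human table, grouped by role, and each column a library, with controls left of the line and Zelnorm right. Colour gives log2 CPM minus the mean of that gene over the 6 libraries, with red above and blue below that mean. Most rows for transport, flux regulators and other induced genes are reddest in MBZ_254 and bluest in MBZ_259, while most glycolytic enzymes are reddest in NC4 and bluest in NC10.

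The genes for oxygen sensing and the HIF subunits overlapped between the groups, and of these 4 only EGLN3 had a highest library at least 2 times its lowest. HIF1A, the oxygen-regulated alpha subunit found in most cells, measured 348, 275 and 365 CPM in controls and 285, 284 and 364 CPM in Zelnorm. EPAS1, which encodes the second alpha subunit, HIF-2 alpha, measured 493, 616 and 427 CPM in controls and 585, 406 and 512 CPM in Zelnorm. The transcripts of both subunits overlapped between the groups, with log2 fold changes of -0.081 ± 0.15 (SE) and -0.032 ± 0.17 (SE). HIF alpha subunits are controlled largely at the protein level, which these data do not measure. EGLN1, the prolyl hydroxylase that marks HIF alpha for degradation in normal oxygen, had the narrowest range of any tested member and measured 104, 96.9 and 101 CPM in controls and 109, 100.3 and 99.3 CPM in Zelnorm. EGLN3, a prolyl hydroxylase that is itself a HIF target, measured 43.5, 68.9 and 42.6 CPM in controls and 62.6, 89.8 and 31.8 CPM in Zelnorm. It was highest in MBZ_257 and lowest in MBZ_259, so the 3 controls lay inside the span of the Zelnorm tumours, and its log2 fold change was 0.25 ± 0.32 (SE). Without MBZ_257 that difference turned to -0.13, and without MBZ_259 it was 0.56.

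Glucose transporters held some of the widest spreads. SLC2A3, which encodes the high-affinity glucose transporter GLUT3, measured 76.7, 35.8 and 35.1 CPM in controls and 189, 48.1 and 27.0 CPM in Zelnorm. The mean was 49.2 ± 23.8 CPM (SD, n = 3) in controls and 87.9 ± 87.9 CPM (SD, n = 3) in Zelnorm. MBZ_254 stood far above the other libraries, NC10 followed, and MBZ_259 was lowest, a range of 6.96-fold. The log2 fold change was 0.84 ± 0.60 (SE), the largest among the members in that fit. It became -0.39 without MBZ_254 and 1.27 without MBZ_259. With limma-voom it was 0.43, below the 0.80 of ANKRD37. With no filter on low counts, SLC2A3 passed edgeR's test with an adjusted p of 0.0215 at a log2 fold change of 0.84. It was the one member called under any setting tried, and its adjusted p was 0.998 or above in every other one.

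SLC2A1, the gene for the basal glucose transporter GLUT1, measured 96.7, 134 and 99.1 CPM in controls and 191, 101 and 86.3 CPM in Zelnorm. It was highest in MBZ_254, NC4 came next and MBZ_259 was lowest. The log2 fold change of 0.20 ± 0.27 (SE) turned to -0.23 without MBZ_254 and was 0.41 without MBZ_259. SLC16A3, which encodes the lactate exporter MCT4, did not follow the glucose transporters and measured 122, 187 and 150.3 CPM in controls and 168, 131 and 161 CPM in Zelnorm. NC4 was its highest library and NC10 its lowest, and the group means were 153 ± 32.5 CPM (SD, n = 3) in controls and 153 ± 19.9 CPM (SD, n = 3) in Zelnorm.

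The regulators of glycolytic flux were lowest in MBZ_259 in 3 of 3. PFKFB3 makes fructose 2,6-bisphosphate, an activator of phosphofructokinase, and measured 129, 179 and 99.5 CPM in controls and 182, 201 and 97.7 CPM in Zelnorm. PFKFB4, a related enzyme with both kinase and phosphatase activity, measured 12.5, 18.5 and 13.0 CPM in controls and 24.1, 14.3 and 9.52 CPM in Zelnorm. PDK1, the kinase that switches off pyruvate dehydrogenase, measured 18.9, 18.2 and 17.9 CPM in controls and 23.9, 20.3 and 16.7 CPM in Zelnorm. PFKFB3 was highest in MBZ_257 and the other two in MBZ_254, and every one overlapped between the groups. The 3 controls of PDK1 lay close together, at 18.9, 18.2 and 17.9 CPM, inside the span of the Zelnorm tumours.

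Among the 15 tested enzymes of the glycolytic chain, the largest spread was in HK2. This inducible hexokinase, which traps glucose as glucose 6-phosphate, measured 23.8, 37.1 and 24.8 CPM in controls and 48.9, 35.0 and 18.9 CPM in Zelnorm. MBZ_254 was highest, followed by NC4 and MBZ_257, and MBZ_259 was lowest. The log2 fold change of 0.26 ± 0.30 (SE) became -0.085 without MBZ_254 and 0.55 without MBZ_259. HK1, the constitutive hexokinase, ran otherwise and measured 91.6, 116 and 105 CPM in controls and 79.9, 129 and 85.1 CPM in Zelnorm. It was highest in MBZ_257 and lowest in MBZ_254.

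The glycolytic enzymes as a set, HK1 and HK2 included, varied about as much as all tested genes. NC4 was highest for 9 of the 15 enzymes and NC10 lowest for 11. The median fold between highest and lowest library was 1.40 for these enzymes and 1.48 for all tested genes. For the 8 other induced genes described below it was 2.56. GPI, which converts glucose 6-phosphate to fructose 6-phosphate, measured 335, 511 and 377 CPM in controls and 396, 428 and 363 CPM in Zelnorm. PFKL and PFKP, isozymes of phosphofructokinase, were both highest in NC4 and lowest in NC10. PFKL ranged from 157 to 217 CPM and PFKP from 202 to 261 CPM. ALDOA, the aldolase that splits fructose bisphosphate into triose phosphates, measured 1127, 1707 and 1200.3 CPM in controls and 1399, 1512 and 1402 CPM in Zelnorm. The controls spanned its whole range. ALDOC, the brain form of aldolase, was low in all libraries, at 1.42 to 2.41 CPM.

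TPI1, which interconverts the triose phosphates, measured 469, 656 and 499 CPM in controls and 515, 626 and 552 CPM in Zelnorm. GAPDH, which carries out the oxidative step, measured 1716, 2238 and 2067 CPM in controls and 1920.2, 2715 and 1909 CPM in Zelnorm. GAPDH was highest in MBZ_257 and lowest in NC10, and the other 2 Zelnorm tumours lay inside the control range. PGK1, the first ATP-yielding kinase of the pathway, measured 348, 466 and 355 CPM in controls and 452, 415 and 356 CPM in Zelnorm. PGAM1, the mutase that follows it, ranged from 412 to 509 CPM, both in controls. ENO1, the main enolase of dividing cells, measured 1471, 1897 and 1552 CPM in controls and 1565, 1794 and 1691 CPM in Zelnorm. ENO2, the neuronal enolase and a frequent hypoxia target, took the other order and measured 78.0, 108 and 88.8 CPM in controls and 119, 95.9 and 63.7 CPM in Zelnorm. It was highest in MBZ_254 and lowest in MBZ_259, as HK2 was.

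PKM, the pyruvate kinase gene whose splice forms were not separated here, measured 1549.8, 2100.1 and 1659.8 CPM in controls and 1720.1, 1674 and 1950.3 CPM in Zelnorm. LDHA, the lactate dehydrogenase subunit that favours lactate, measured 804, 964 and 867 CPM in controls and 948, 1093 and 908 CPM in Zelnorm. LDHA was highest in MBZ_257 and lowest in NC10, and the other 2 Zelnorm tumours overlapped the controls, with a log2 fold change of 0.16 ± 0.13 (SE). Summed over the 15 enzymes, the level was 8787, 11789 and 9615 CPM in the controls and 10026, 11451 and 10136 CPM in the Zelnorm tumours. NC4 and MBZ_257 were the 2 highest libraries, 1 from each group. GAPDH, PGK1, ENO1, LDHA, PGAM1, TPI1, ALDOA and PKM have processed pseudogenes or close copies, between which the counting could divide reads, so their levels are uncertain.

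Among the genes for pH regulation, CA9 could not be tested. CA9 encodes carbonic anhydrase IX, a widely used hypoxia marker on the surface of tumour cells. It had 0 counts in each control, where the floor of 3 counts per library allows up to 0.0767 to 0.117 CPM, and 1, 1 and 3 counts in MBZ_254, MBZ_257 and MBZ_259 after rounding. CA12, the gene for another membrane carbonic anhydrase, measured 32.8, 61.4 and 51.6 CPM in controls and 33.4, 56.7 and 36.6 CPM in Zelnorm. It was highest in NC4 and lowest in NC10, both controls, and its log2 fold change of -0.20 ± 0.25 (SE) was the lowest among the members.

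Both mitophagy receptors were highest in MBZ_254 and lowest in MBZ_259. BNIP3 measured 129.6, 142 and 125 CPM in controls and 174, 136 and 123 CPM in Zelnorm, and BNIP3L, also known as NIX, measured 174, 121 and 154 CPM in controls and 183, 154 and 114 CPM in Zelnorm. The gap between MBZ_254 and the next library was small for BNIP3L, where NC10 came close. The collagen prolyl hydroxylases, whose products stabilise the collagen triple helix, differed in order. P4HA1 measured 162, 183 and 152 CPM in controls and 218, 147 and 143 CPM in Zelnorm and was highest in MBZ_254, and P4HA2 measured 57.9, 71.5 and 53.6 CPM in controls and 70.8, 50.8 and 67.7 CPM in Zelnorm and was highest in NC4.

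The 8 other induced genes spread most widely, with MBZ_254 highest in 7 and MBZ_259 lowest in 6. ANGPTL4, a secreted inhibitor of lipoprotein lipase, measured 11.8, 15.7 and 11.8 CPM in controls and 48.0, 8.62 and 6.53 CPM in Zelnorm. Its range from MBZ_259 to MBZ_254 was 7.29-fold, the widest among the members, and the other 2 Zelnorm tumours lay below every control. The log2 fold change of 0.67 ± 0.62 (SE) turned to -0.79 without MBZ_254 and was 1.11 without MBZ_259, and limma-voom gave 0.018. NDRG1, a stress-induced gene linked to differentiation, measured 854, 1582 and 733 CPM in controls and 1739, 883 and 628 CPM in Zelnorm. MBZ_254 and NC4 were both high, and the group means of 1056 ± 459 CPM (SD, n = 3) in controls and 1084 ± 582 CPM (SD, n = 3) in Zelnorm were nearly equal.

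ADM, which encodes the vasodilator and angiogenic peptide adrenomedullin, measured 36.6, 63.4 and 31.3 CPM in controls and 76.6, 62.6 and 24.0 CPM in Zelnorm. MBZ_254, NC4 and MBZ_257 formed its upper part, and the remaining controls and MBZ_259 the lower. MXI1, an antagonist of MYC, measured 25.1, 29.0 and 23.1 CPM in controls and 43.9, 21.1 and 18.6 CPM in Zelnorm, with MBZ_254 above all others. STC2, a secreted glycoprotein, measured 37.4, 52.1 and 42.4 CPM in controls and 65.2, 43.5 and 35.5 CPM in Zelnorm. STC2 followed the order of NDRG1 at the top, with MBZ_254 first and NC4 second.

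KDM3A, a histone H3 lysine 9 demethylase, measured 64.7, 66.6 and 65.5 CPM in controls and 92.2, 75.2 and 60.4 CPM in Zelnorm. Its controls differed by little, and the Zelnorm tumours lay on both sides of them. ANKRD37, an ankyrin repeat protein gene, was low in all libraries and measured 1.40, 3.98 and 1.78 CPM in controls and 3.99, 3.40 and 3.74 CPM in Zelnorm. It had the smallest p of any member, 0.0996 before adjustment in edgeR (adjusted p = 1.00). NC10 and NC9 were low, and the control NC4 was level with the Zelnorm tumours. INSIG2, a regulator of sterol synthesis, measured 27.9, 19.0 and 26.8 CPM in controls and 27.6, 29.2 and 23.0 CPM in Zelnorm and was the one gene of this group lowest in NC4.

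**Figure D2:**
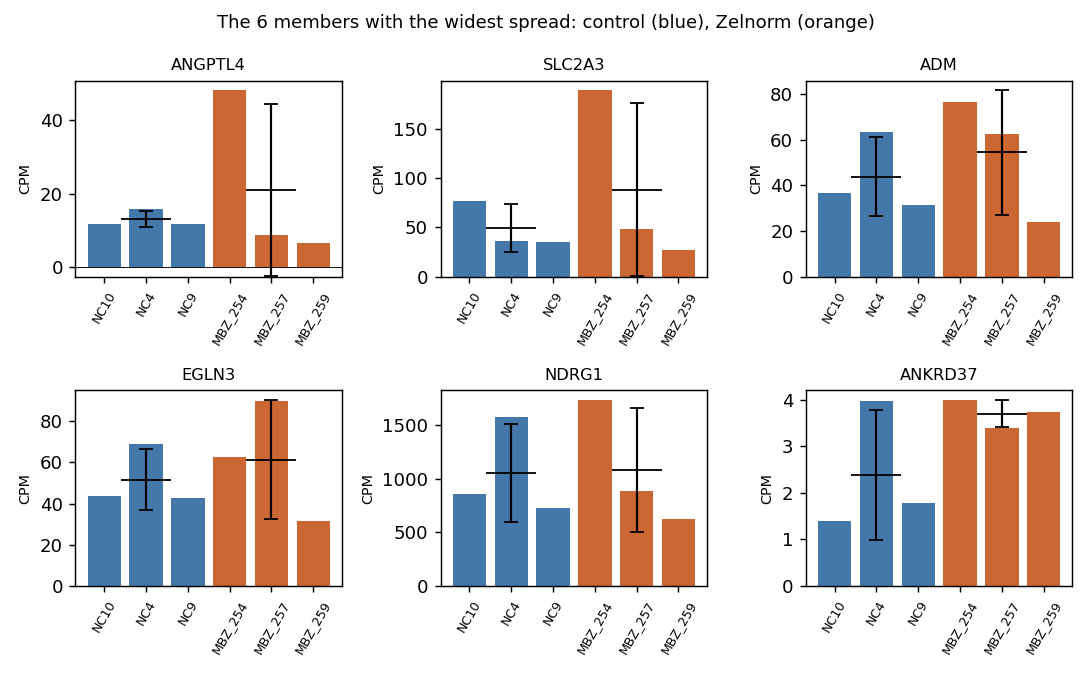
Bars give CPM in each library for the 6 members with the widest range, controls in blue and Zelnorm in orange, and the black marks give each group mean ± SD (n = 3). MBZ_254 is far above the other libraries for ANGPTL4 and SLC2A3, MBZ_254 and NC4 are both high for ADM and NDRG1, and EGLN3 is highest in MBZ_257.

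**Figure D3:**
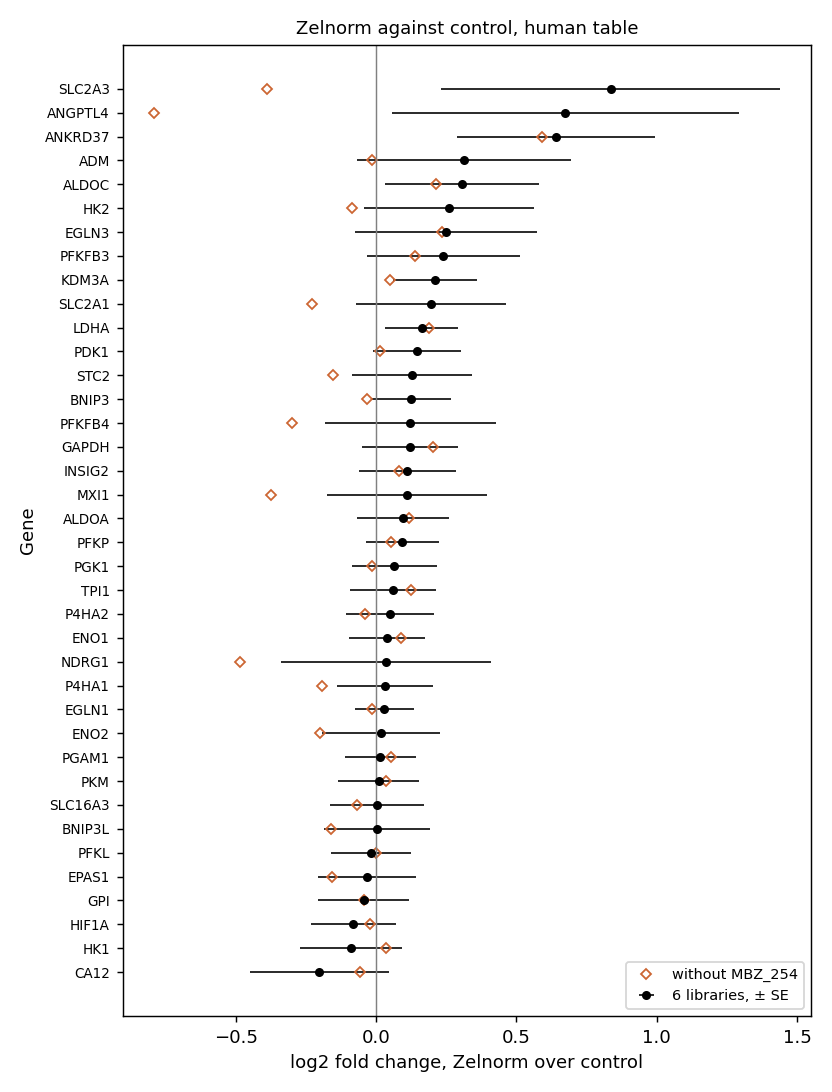
Black points give the log2 fold change of each tested member, Zelnorm over control, ± SE, over all 6 libraries, and open diamonds the same without MBZ_254. Of the 6 members with the widest range, ANGPTL4, SLC2A3, NDRG1 and, narrowly, ADM move from right to left of 0 without MBZ_254. EGLN3 and ANKRD37 stay on the right. Values without MBZ_259 are not drawn.

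A score was taken for each library as the mean over genes of log2 CPM minus the mean of that gene. For the 38 members it was -0.16, 0.17 and -0.15 in the controls and 0.32, 0.05 and -0.23 in the Zelnorm tumours. The mean was -0.05 ± 0.19 (SD, n = 3) in controls and 0.05 ± 0.28 (SD, n = 3) in Zelnorm. The difference of 0.09 was smaller than either SD. By role, the score in MBZ_254 against MBZ_259 was 0.90 against -0.43 for transport, 0.71 against -0.42 for the other induced genes, and 0.46 against -0.45 for the flux regulators. For the glycolytic enzymes it was 0.07 against -0.09, and the extremes lay in the controls, at -0.21 in NC10 and 0.20 in NC4.

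Genes of the same pathways outside the 39 were read from 4 companion lists, and none of these genes was called. Of 41 names of other HIF targets, which include an older name of a gene also listed, 37 were tested. Of these, 26 had a log2 fold change above 0, against 49.1% of all genes. In edgeR's test 1 had an unadjusted p under 0.05, against 1.31% of all genes. MBZ_254 was the highest library for 23 of the 37, against 16.5% of all genes, and MBZ_259 the lowest for 12, against 14.0%. Their score was 0.41 in MBZ_254, and between -0.15 and 0.10 in the other 5 libraries. MBZ_257 and MBZ_259 scored -0.12 and -0.15, and the controls NC10 and NC9 -0.14 and -0.10, all below the mean of the 6 libraries. The gene with p under 0.05 was JMJD6, a lysyl hydroxylase, at 30.6, 35.2 and 30.7 CPM in controls and 41.0, 38.4 and 75.7 CPM in Zelnorm. All 3 Zelnorm tumours lay above the controls for JMJD6, as in 2.52% of all genes, but the highest was MBZ_259, not MBZ_254. JMJD6 was named for its small p, so this separation is no separate result.

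LOX, a collagen cross-linking oxidase, measured 33.8, 48.7 and 40.4 CPM in controls and 98.9, 22.9 and 15.1 CPM in Zelnorm. HILPDA, which promotes lipid storage, measured 10.2, 21.6 and 8.01 CPM in controls and 30.1, 18.7 and 9.19 CPM in Zelnorm. Both were highest in MBZ_254, as was DDIT4, an inhibitor of mTORC1 signalling, at 72.1, 124 and 62.7 CPM in controls and 144, 94.2 and 108 CPM in Zelnorm. CXCR4, a chemokine receptor, measured 2.20, 5.06 and 4.02 CPM in controls and 5.86, 2.38 and 9.69 CPM in Zelnorm and was highest in MBZ_259.

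The HIF machinery list (15 of 15 tested) had 7 genes with a fold change above 0, against 49.1% of all genes. Its score ranged from -0.14 in MBZ_257 to 0.14 in MBZ_254. SIAH2, a ubiquitin ligase that acts on the EGLN enzymes, measured 22.1, 26.0 and 21.0 CPM in controls and 26.2, 26.2 and 38.5 CPM in Zelnorm. All Zelnorm tumours of SIAH2 lay above the controls, the 2 lower ones by little, as in 2.52% of all genes. SIAH2, also named for its small p, had an unadjusted edgeR p under 0.05 and an adjusted p of 1.00. ARNT2, a partner of HIF alpha, measured 17.8, 28.9 and 21.2 CPM in controls and 25.4, 11.6 and 24.7 CPM in Zelnorm. CITED2, which competes with HIF for a coactivator, measured 119, 171 and 106 CPM in controls and 165, 122 and 109.7 CPM in Zelnorm and was highest in NC4 with MBZ_254 second. CUL2, a scaffold of the VHL ubiquitin ligase, ranged from 26.7 to 44.8 CPM, with both ends in controls. ELOC and ELOB, the elongins of the same ligase, and EGLN2, a prolyl hydroxylase, had ranges of at most 1.41-fold.

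Of 20 listed isozymes of glycolysis outside the 39, 11 were tested and 6 had a fold change above 0, against 49.1% of all genes. MBZ_254 was the lowest library for 6, against 17.0% of all genes, and the highest for 2, against 16.5%, and the score there was -0.27. LDHB, the lactate dehydrogenase subunit that favours pyruvate, measured 609, 583 and 603 CPM in controls and 521, 773 and 785 CPM in Zelnorm. TIGAR, a fructose bisphosphatase that lowers glycolytic flux, measured 20.5, 18.8 and 19.2 CPM in controls and 17.5, 25.5 and 25.9 CPM in Zelnorm. Both were highest in MBZ_259 and lowest in MBZ_254, the reverse of SLC2A3. HKDC1, a hexokinase-related gene, was also lowest in MBZ_254 and measured 18.7, 28.8 and 30.0 CPM in controls and 11.4, 47.9 and 17.5 CPM in Zelnorm. ENO3, the muscle enolase, was highest in NC4 and ranged from 16.1 to 51.2 CPM. PFKFB2, another bifunctional enzyme of fructose 2,6-bisphosphate, ranged only from 34.4 to 40.0 CPM and was highest in MBZ_254.

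For the fate of pyruvate and lactate, 16 of 18 listed genes were tested and 9 had a fold change above 0, against 49.1% of all genes. SLC16A4, a monocarboxylate transporter gene, measured 1.33, 1.12 and 1.58 CPM in controls and 2.77, 1.54 and 2.46 CPM in Zelnorm, with an unadjusted edgeR p under 0.05, an adjusted p of 1.00 and overlapping groups. PDK4, a pyruvate dehydrogenase kinase induced by fasting, measured 6.87, 5.57 and 7.76 CPM in controls and 9.56, 5.34 and 9.74 CPM in Zelnorm. MPC1, a subunit of the mitochondrial pyruvate carrier, was highest in MBZ_259 at 12.1 CPM and ranged from 7.03 to 9.45 CPM elsewhere. PDHB, a pyruvate dehydrogenase subunit, ranged from 40.8 to 47.7 CPM. PDP1, the phosphatase that reactivates that complex, ranged from 12.4 to 21.4 CPM.

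The same genes were then read in the mouse table, where they report mainly on host cells of the same tumours. Every one of the 39 had a tested mouse gene of the same name, with Car9, Car12 and Gpi1 for CA9, CA12 and GPI. None passed edgeR's test, against 0% of 14459 mouse genes, and none had an unadjusted p under 0.05, against 1.75%. Over all mouse genes DESeq2 called 6 and limma-voom 0. The log2 fold change was above 0 for 31 of 39, against 53.9% of all mouse genes. It was above 0 for 15 of 39 without MBZ_254 and for 32 of 39 without MBZ_259. MBZ_254 was the highest library for 23 of the 39, against 20.8%, and MBZ_259 the lowest for 19, against 11.9%. Scaled to the totals of both tables instead, MBZ_254 was highest for 32 and MBZ_259 lowest for 8. Under that scaling all mouse levels rise with the mouse share of counts, which was highest in MBZ_254 (23.4%) and lowest in MBZ_257 (15.1%). The share over all mouse genes was not counted under that scaling, so these 2 counts have no background. The highest library was at least 2 times the lowest in 17 of 39, against 33.5%. The score of the 39 was -0.10, 0.11 and -0.07 in the controls and 0.47, -0.10 and -0.30 in the Zelnorm tumours.

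Bnip3 measured 41.5, 45.5 and 41.7 CPM in controls and 111, 28.3 and 23.9 CPM in Zelnorm in the mouse table. Its controls lay within a few CPM, with MBZ_254 far above and the other 2 Zelnorm tumours below. P4ha2 measured 44.4, 71.0 and 36.8 CPM in controls and 89.9, 23.5 and 41.6 CPM in Zelnorm, and Angptl4 measured 29.2, 70.9 and 41.9 CPM in controls and 89.7, 24.8 and 22.4 CPM in Zelnorm. For both genes MBZ_254 was highest and NC4 second. Egln3 measured 26.0, 30.7 and 26.3 CPM in controls and 44.6, 70.5 and 19.1 CPM in Zelnorm, so that MBZ_257 was its highest and MBZ_259 its lowest library, as for human EGLN3. Slc2a1 measured 77.0, 85.7 and 87.4 CPM in controls and 164, 105 and 71.1 CPM in Zelnorm, and Egln1 measured 64.8, 63.4 and 70.2 CPM in controls and 97.6, 84.2 and 68.2 CPM in Zelnorm. MBZ_254 was highest for both, and for Egln1 the lowest Zelnorm tumour lay within the controls.

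Adm had the widest range of the mouse genes and measured 7.22, 32.4 and 11.8 CPM in controls and 26.2, 4.63 and 3.54 CPM in Zelnorm. NC4 was its highest library, and MBZ_257 was low, whereas human ADM was high in MBZ_257. Car9, unlike human CA9, was detected in every library and measured 1.76, 1.94 and 3.15 CPM in controls and 3.43, 1.85 and 0.686 CPM in Zelnorm, from 98 counts in all. Gapdh measured 346, 411 and 404 CPM in controls and 429.5, 488 and 487 CPM in Zelnorm, the one of the 39 with all 3 Zelnorm libraries above all controls, against 2.52% of mouse genes. Pgk1 measured 377, 382 and 380.3 CPM in controls and 511, 473 and 362 CPM in Zelnorm, and Pdk1 measured 25.0, 15.9 and 24.8 CPM in controls and 23.1, 12.6 and 13.3 CPM in Zelnorm. Pdk1 was highest in NC10, while human PDK1 was highest in MBZ_254.

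Set side by side, 15 of 38 human and mouse pairs (39.5%) had the same highest library, against 29.4% of 11146 pairs of the same name. The lowest library was shared by 16 of 38 (42.1%), against 32.7%. In 11 pairs both were highest in MBZ_254 and in 10 both were lowest in MBZ_259. The 2 tables come from the same libraries, so shared orders are not independent measurements.

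**Figure D4:**
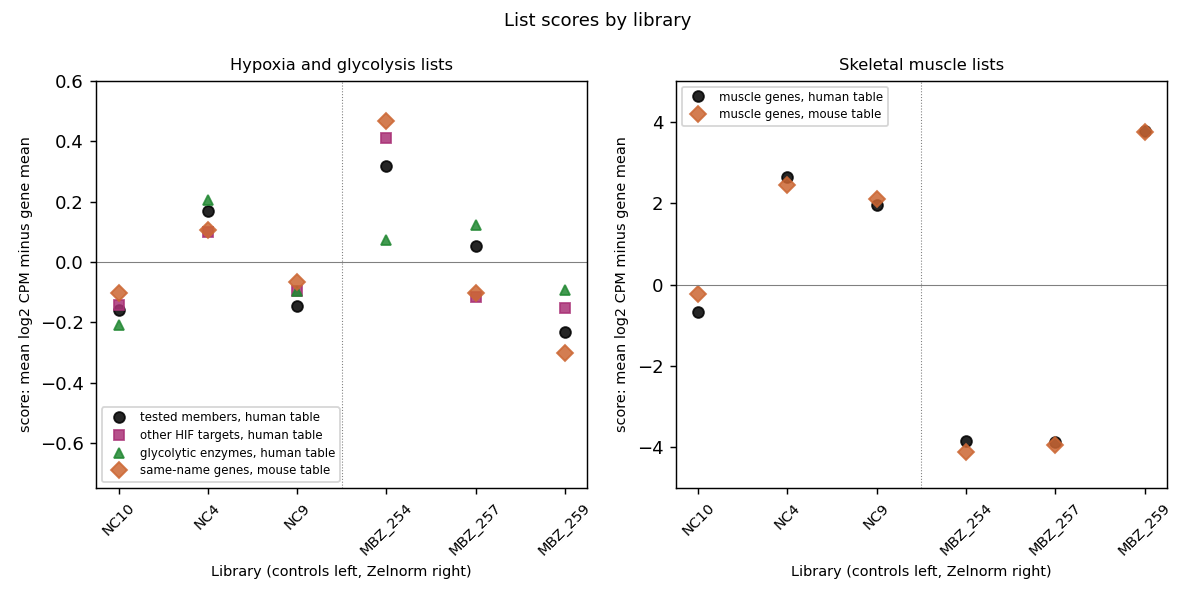
Points give the score of each list in each library, controls left of the dotted line and Zelnorm right, for hypoxia and glycolysis lists on the left and for skeletal muscle lists on the right. MBZ_254 is highest for the members, the other HIF targets and the mouse genes, while the muscle lists are lowest in MBZ_254 and MBZ_257 and highest in MBZ_259.

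To show what lies in front of the mouse genes that differed most, 250 bases before the transcript start are printed for 4 of them. They are the genes with the widest range among those of the 39 that were highest in MBZ_254 and had a RefSeq window, chosen after the values were seen. Sequence and positions are from RefSeq on GRCm38.p6, on the strand of the gene, and capitals mark the letters ACGTG, the core of the hypoxia response element, or their reverse complement. Bnip3 lies on the minus strand at chr7:138909507-138909756, and its match is a palindrome in which both strands carry the letters. Car9 is at chr4:43506776-43507025, P4ha2 at chr11:54100674-54100923 and Slc16a3 at chr11:120948817-120949066, all on the plus strand.
Bnip3: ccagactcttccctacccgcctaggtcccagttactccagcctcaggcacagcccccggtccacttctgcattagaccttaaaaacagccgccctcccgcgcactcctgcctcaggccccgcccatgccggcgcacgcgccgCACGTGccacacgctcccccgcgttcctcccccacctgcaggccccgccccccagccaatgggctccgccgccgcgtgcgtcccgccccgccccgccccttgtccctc
Car9: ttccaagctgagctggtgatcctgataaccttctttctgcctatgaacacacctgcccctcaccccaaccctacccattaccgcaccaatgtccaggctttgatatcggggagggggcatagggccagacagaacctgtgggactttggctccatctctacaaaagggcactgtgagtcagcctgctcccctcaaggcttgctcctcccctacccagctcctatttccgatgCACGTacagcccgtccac
P4ha2: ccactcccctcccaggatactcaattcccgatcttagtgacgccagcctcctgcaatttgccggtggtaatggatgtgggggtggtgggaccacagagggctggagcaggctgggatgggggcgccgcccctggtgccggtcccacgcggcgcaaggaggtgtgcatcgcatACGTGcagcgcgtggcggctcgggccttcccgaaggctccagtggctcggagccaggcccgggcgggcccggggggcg
Slc16a3: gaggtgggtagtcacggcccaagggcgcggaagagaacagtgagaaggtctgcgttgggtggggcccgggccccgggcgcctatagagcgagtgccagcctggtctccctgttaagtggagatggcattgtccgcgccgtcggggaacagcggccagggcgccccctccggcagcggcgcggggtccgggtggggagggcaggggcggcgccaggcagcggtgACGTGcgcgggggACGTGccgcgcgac

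ACGTG was searched on both strands of the 250-base windows of all genes in the table. The letters also lie within the E-box CACGTG, which other factors bind, and of the 4 printed windows the one of Bnip3 holds it. ACGTG, on either strand, was found in 18 of the 34 mouse genes that had a window (52.9%), against 18.5% of 27025 genes with windows of the same length. Counted by window it was in 21 of 50 (42%), against 16.6% of 32851. The genes were listed as hypoxia-response and glycolysis genes, so this share describes the list and not these tumours. Ndrg1, Bnip3l, Slc2a3, Angptl4 and Epas1 had no entry in the table. A match is a description of the letters and shows no binding. The first base of the match lay 108 bases before the start in Bnip3, 18 in Car9, 78 in P4ha2, and 27 and 14 in Slc16a3.

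The human table also held RNA whose pattern followed the host. The 8 human skeletal muscle genes had summed levels of 14.6, 159 and 103 CPM in the controls and 1.75, 1.24 and 322 CPM in the Zelnorm tumours. As in the mouse table, MBZ_259 was highest, then NC4, NC9 and NC10, and the other Zelnorm tumours were lowest. Their human counts were 4.11% to 38.0% of the counts of both tables, and at most 0.613 human counts per mouse count. COL1A1, a fibroblast collagen, measured 223 to 919 CPM in the human table. The human share of both tables was 57.3% for ANGPTL4, the lowest of the tested members, 95.2% for SLC2A3 and 98.5% for ENO1, the highest.

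Taking 0.613 counts from the human gene for each count of its mouse partner, an alternative added after the data were seen, removed 0.952% to 45.7% of the counts of a member. After it MBZ_254 was highest for 14 of 38 members and MBZ_259 lowest for 15. By mean log2 CPM, and not the fitted fold change used above, 27 were higher in Zelnorm than in control. The score was -0.15, 0.12 and -0.14 in the controls and 0.27, 0.13 and -0.23 in the Zelnorm tumours. SLC2A3 then had a range of 7.10-fold, with the same highest and lowest library. ANGPTL4, which lost the most, became 7.60, 2.72 and 5.88 CPM in controls and 30.4, 6.08 and 3.20 CPM in Zelnorm. MBZ_254 was again its highest library, but its lowest was now the control NC4, the lower Zelnorm tumours no longer lay below every control, and its range was 10.9-fold. ANKRD37 was now highest in NC4, and BNIP3L and EGLN1 were highest in NC10. The remaining part of host reads in these levels was not tested.

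The libraries also differed in depth, host share and host cell markers, which followed the member scores only in part. MBZ_254 had the lowest human depth. The mouse share of all counts was 19.3%, 22.3% and 19.0% in NC10, NC4 and NC9. It was 23.4%, 15.1% and 19.7% in MBZ_254, MBZ_257 and MBZ_259. MBZ_254 and NC4 thus had the highest mouse shares and also the highest member scores, 0.32 and 0.17. MBZ_257 had the lowest mouse share, at a member score of 0.05. All 8 mouse endothelial markers were detected, with summed levels of 885, 1304 and 951 CPM in the controls and 1160, 696 and 1001 CPM in the Zelnorm tumours. Of the 8, 7 were highest in NC4 and 7 lowest in MBZ_257. Of 6 red cell markers 5 were tested, and all 5 were highest in NC4, where they summed to 1777 CPM, against 324 to 541 CPM elsewhere. The 7 fibroblast markers summed to 26236, 42263 and 25402 CPM in the controls and 31424, 13484 and 27810 CPM in the Zelnorm tumours. The 6 macrophage markers summed to 2555 to 3354 CPM in controls and 3329 to 3665 CPM in Zelnorm, and the 6 adipocyte markers to 204 to 583 CPM and 84.7 to 226 CPM. The part of these differences in the levels of the 39 genes was not tested.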

How the data were processed

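RNA sequencing of 6 tumours, 3 per group, was analysed from 1 human and 1 mouse gene table. The authors deposited estimated counts for each gene, and 38.0% of human and 27.0% of mouse values above 0 were not whole. The submitters' processing notes list the builds GRCh38 and GRCm38 and the tools HISAT2, StringTie, edgeR and DESeq2, without their versions or what each did. The sources used here do not say how reads were divided between species or whether strand was used.

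Counts were rounded, since the tests had been planned for whole counts. Rows without a gene name (574 of 59458 human, 856 of 56392 mouse; 0.407% to 0.518% and 0.317% to 0.468% of a library's counts) were left out. Each table was fitted alone with edgeR 4.0.16 in R 4.3.3 (filterByExpr, TMM, glmQLFit and glmQLFTest, two-sided, Benjamini-Hochberg over all tested genes, called under 0.05), and the SE was derived from the F statistic. CPM are edgeR's counts scaled to the tested total times the TMM factor. Ranges and scores used log2 CPM with a prior count of 2. DESeq2 1.42.0, limma-voom (limma 3.58.1), other scalings, other filters and each library left out were alternatives. For mouse Aldoa, listed under several rows, the row with most counts was used. The fit was also run on simulated counts that gave every gene the same dispersion and no tumour a shift of its own. That run does not show how the fit handles the spread between these tumours.

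Columns carry group names but no replicate number, so libraries were tied to groups only. Every member is named. From each companion list the text names the 4 tested genes with the smallest p and the 4 with the widest range, and from the mouse genes 6 of each, with a mean of at least 1 CPM; an item that this rule would name is not reported here. The members and lists were chosen with earlier results of these data known. The floor of 3 counts covers counting error only. Human coordinates and sequences were not used here.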

Additional observations from a re-analysis of the deposited data

How the results depend on the processing

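No member was called by DESeq2, limma-voom, RLE factors, either other scaling, the stricter filter, robust dispersion or any left-out library. Without a count filter 61 human genes were called (DESeq2 called 1) and 1 member, SLC2A3, with a log2 fold change of 0.84 and an adjusted p of 0.0215. Among mouse genes, 2 were called without a filter and 6 by DESeq2. Members above 0 numbered 16 (without MBZ_254) to 34 when each library was left out, and mouse genes of the same name 15 (without MBZ_254) to 33. Of 532 log2 fold changes of single members recomputed, 468 kept their sign and side of the threshold and 63 changed sign, in 31 of 38 members. With limma-voom the values were -0.012 for NDRG1, -0.0089 for BNIP3L, -0.020 for ENO2 and -0.014 for MXI1, and without a change of sign 0.018 for ANGPTL4, 0.016 for PFKFB4, 0.43 for SLC2A3, 0.16 for EGLN3, 0.12 for SLC2A1 and 0.17 for HK2, each over 1.5 times below the edgeR value. With library totals they were -0.016 for BNIP3L, -0.00013 for PGAM1, -0.0045 for PKM and -0.0079 for SLC16A3, and with the totals of both tables -0.0099 for BNIP3L. Log2 fold changes of the members that changed sign with one library left out ranged as follows: CA12 -0.47 to 0.0015, ADM -0.013 to 0.68, NDRG1 -0.48 to 0.45, BNIP3 -0.031 to 0.23, BNIP3L -0.16 to 0.17, EGLN1 -0.013 to 0.056, EGLN3 -0.13 to 0.56, SLC2A1 -0.23 to 0.41, SLC2A3 -0.39 to 1.31, HK1 -0.33 to 0.038 and HK2 -0.085 to 0.55. Further ranges were GPI -0.16 to 0.15, PFKL -0.10 to 0.15, PFKFB4 -0.30 to 0.39, ALDOA -0.014 to 0.31, TPI1 -0.031 to 0.22, GAPDH -0.067 to 0.21, PGK1 -0.015 to 0.21, PGAM1 -0.050 to 0.11, ENO1 -0.033 to 0.16, ENO2 -0.20 to 0.23 and PKM -0.076 to 0.15. The last were SLC16A3 -0.13 to 0.17, P4HA1 -0.19 to 0.14, P4HA2 -0.038 to 0.18, ANGPTL4 -0.79 to 1.11, MXI1 -0.37 to 0.34, INSIG2 -0.041 to 0.21, STC2 -0.15 to 0.31, HIF1A -0.21 to 0.0053 and EPAS1 -0.16 to 0.12. The cause of these changes was not tested. In the mouse table, the totals of both tables as scaling gave 32 of 39 genes highest in MBZ_254 and 8 lowest in MBZ_259. The main fit gave 23 and 19. With that scaling mouse levels also follow the mouse share of each library, and the share over all mouse genes was not counted. No paired analysis was possible because the columns carry no replicate number, so a fit with that number as a block was not run. The labels number the samples within each group and do not say that equal numbers mark a pair. CA9 lay at or under the floor of 3 counts in every library of the human table, with 5 counts in all, too few to compare the groups.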
